A study of Homo sapiens with 12 samples.

Results

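The miRNAs described here are 8 mature miRNAs whose levels mark branches of the blood system, taken by name from a list drawn up with earlier results of these data known: hsa-miR-223-3p, hsa-miR-223-5p, hsa-miR-142-3p, hsa-miR-142-5p, hsa-miR-150-5p, hsa-miR-144-3p, hsa-miR-451a and hsa-miR-486-5p. All 8 were among the 1204 miRNAs counted, and all 8 were among the 659 kept after low counts were filtered out with edgeR. Small RNAs were sequenced from the human acute myeloid leukemia (AML) lines MV4-11 and Molm-14, each of which has an FLT3 internal tandem duplication (FLT3-ITD). Cells of either line had lost MPC1 (MPC1 KO), a gene for part of the carrier that brings pyruvate into mitochondria, through a CRISPR/Cas9 lentiviral vector with a GFP marker and 1 guide RNA, or carried the Empty Vector (EV). Each of the 4 groups had 3 libraries. A single guide was used, and whether the cells of a group were a clone or a pool, or the libraries separate cultures, is not stated in the sources used here, so p-values measure the spread between these libraries, which may be technical.

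Mature miRNAs are cut from the 2 arms of a hairpin (5p and 3p) and find their mRNA targets mainly through the seed, the bases near the 5′ end. miR-142 is made in nearly all blood cells and in few other tissues. miR-223 is a myeloid miRNA, driven by the C/EBP factors and high in granulocytes and monocytes, and its rise accompanies granulocytic maturation of leukemic cells. miR-150 is high in mature lymphocytes. miR-144 and miR-451a are made from 1 precursor transcript switched on by GATA1 in red cell precursors, and miR-451a is cut by Argonaute 2 instead of Dicer. miR-486, from a hairpin within the ankyrin gene ANK1, is high in red cells and muscle.

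RefSeq (GRCh38.p14) mature sequences were matched for 5 of the 8 miRNAs and for hsa-miR-144-5p. Those of the 5 are shown because the seeds, bases 2 to 8, in capitals, tell which miRNAs could share targets.
hsa-miR-223-3p: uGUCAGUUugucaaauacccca
hsa-miR-223-5p: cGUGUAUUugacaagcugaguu
hsa-miR-142-3p: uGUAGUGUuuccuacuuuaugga
hsa-miR-142-5p: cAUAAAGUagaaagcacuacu
hsa-miR-144-3p: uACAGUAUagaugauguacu
hsa-miR-101-3p: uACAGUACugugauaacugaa
The 5 seeds all differ, and none is held by another miRNA of the table among those matched to RefSeq. hsa-miR-101-3p, which is not one of the 8, is shown because it shares bases 2 to 7 with hsa-miR-144-3p, with the last seed base different. Its level was 151 ± 13.8 CPM (SD, n = 3) in MV4-11 EV and 403 ± 40.4 (SD, n = 3) in Molm-14 MPC1 KO, far above that of hsa-miR-144-3p given further on. CPM is the count after scaling a library's TMM-normalized total to 1000000. RefSeq sequences were not used here for hsa-miR-150-5p, hsa-miR-451a and hsa-miR-486-5p.

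The hairpins of miR-223 and miR-142 are shown with both mature arms in capitals, 5p first, since both arms of each were abundant.
MIR223: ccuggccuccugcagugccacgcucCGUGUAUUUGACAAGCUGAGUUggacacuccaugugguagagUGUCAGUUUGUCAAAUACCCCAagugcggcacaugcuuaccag
MIR142: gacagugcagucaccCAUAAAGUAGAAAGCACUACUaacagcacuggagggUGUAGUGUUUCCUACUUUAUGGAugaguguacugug
In GRCh38, MIR223 lies on the plus strand at chrX:66018870-66018979, in an exon of the noncoding gene MIR223HG. MIR142 lies on the minus strand at chr17:58331232-58331318, in an exon of the noncoding gene MIR142HG. MIR144 (chr17:28861533-28861618) and MIR451A (chr17:28861369-28861440), both on the minus strand, are 92 bases apart in an exon of the same noncoding gene, ENSG00000264066. MIR150, at chr19:49500785-49500868 on the minus strand, lies in no annotated host gene. MIR486-1 and MIR486-2 overlap on opposite strands within ANK1, outside its exons.

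The total count of a library ranged from 3870104 to 8683456, and the TMM factors from 0.940 to 1.08. MV4-11 EV replicate 1 was the deepest library. Every pair of replicates differed by more than sampling noise (chi-square per degree of freedom from 11.4 to 154). The MPC1 mRNA is not measured in small RNA libraries, so the deletion was not checked here. hsa-miR-142-3p ranked between 5 and 12 among all miRNAs of a library and took 1.81% to 4.68% of its counts. It was picked as a blood miRNA with earlier results of these data known, so its level does not test blood origin. Some markers of other tissues had counts too, as given further on.

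The 8 miRNAs fell into 2 sets far apart in level. The 4 arms of miR-142 and miR-223 ranked 9, 19, 44 and 56 by mean CPM over the 12 libraries, whereas hsa-miR-451a, hsa-miR-150-5p, hsa-miR-144-3p and hsa-miR-486-5p ranked 466, 561, 562 and 582. One read stands for 1 mature RNA of near-equal length, so no length correction was needed, but how well the library kit captured each sequence was not measured. The lowest value of hsa-miR-223-5p in any library was 1322 CPM, and the highest value of any of the 4 low miRNAs was 6.70 CPM, of hsa-miR-451a.

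**Figure D1:**
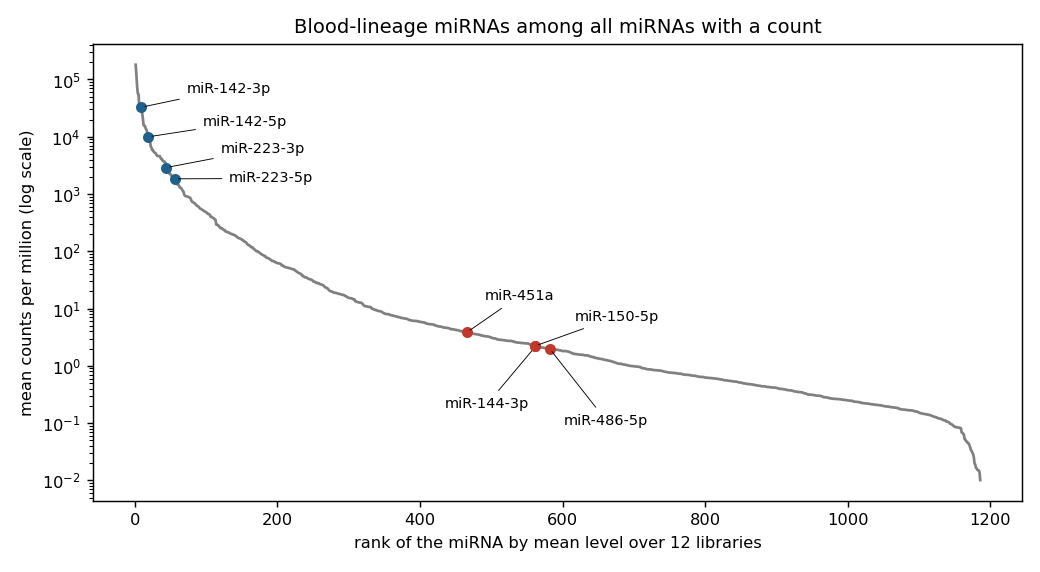
Mean CPM over 12 libraries (log scale) against the rank of each miRNA with a count. Blue points mark the arms of miR-142 and miR-223, which rank between 9 and 56, and red points mark the erythroid and lymphoid miRNAs, which rank between 466 and 582.

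**Figure D2:**
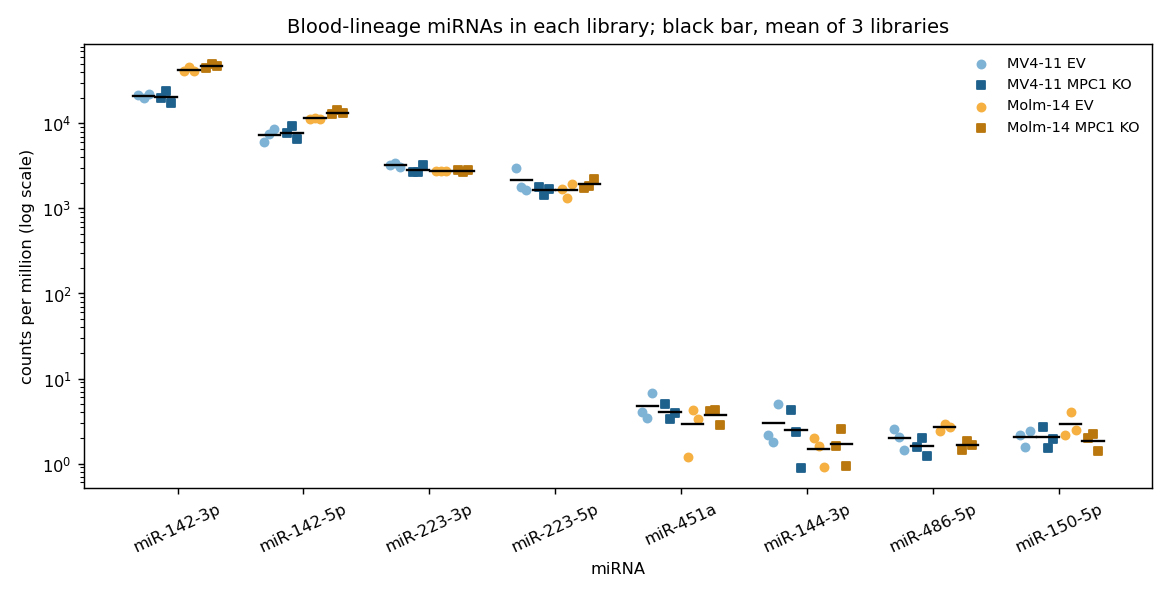
CPM (log scale) of the 8 miRNAs in each of the 12 libraries. Points are libraries, colors the 4 groups and black bars the means of 3 libraries. The miR-142 arms are higher in Molm-14 than in MV4-11, and all libraries of the 4 rightmost miRNAs lie at or below 6.70 CPM.

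hsa-miR-142-3p, the most abundant of the 8, differed between the cell lines and not detectably with MPC1. Its level was 21396, 20085 and 22106 CPM in the MV4-11 EV libraries and 20068, 23714 and 17275 CPM in MV4-11 MPC1 KO. In Molm-14 it was 40913, 45844 and 40903 CPM in EV and 44232, 49595 and 47301 CPM in MPC1 KO. All 6 Molm-14 libraries were above all 6 MV4-11 libraries, and within each line the MPC1 KO and EV libraries overlapped. Molm-14 EV exceeded MV4-11 EV by 1.01 on the log2 scale (SE 0.11, adjusted p = 1.78e-08 by edgeR's quasi-likelihood test with Benjamini-Hochberg adjustment over the 659 miRNAs). With MPC1 KO, the fold change of hsa-miR-142-3p was 0.960 in MV4-11 (95% confidence interval 0.822 to 1.12, adjusted p = 0.897 by edgeR) and 1.11 in Molm-14 (interval 0.946 to 1.29, adjusted p = 0.520). In Molm-14 it was higher in 3 of 3 same-numbered pairs, a count that depends on the pairing since the groups overlapped. hsa-miR-142-5p and hsa-miR-223-5p were also higher in 3 of 3, while hsa-miR-150-5p and hsa-miR-486-5p were lower in 3 of 3. hsa-miR-223-3p and hsa-miR-144-3p were higher in 2 of 3, and hsa-miR-451a in 1 of 3. The share of all miRNAs with 3 pairs in the same direction was not computed, so these counts are not read as an MPC1 KO effect. The adjusted p of hsa-miR-142-3p was 0.128 by edgeR under the replicate block described for its other arm, a pairing chosen after the data were seen.

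hsa-miR-142-5p, the other arm of that hairpin, was also higher in Molm-14. It had 5987, 7417 and 8584 CPM in MV4-11 EV and 7621, 9268 and 6471 CPM in MV4-11 MPC1 KO. In Molm-14 it had 11387, 11688 and 11317 CPM in EV and 12928, 14183 and 13093 CPM in MPC1 KO. The order of the group means was MV4-11 EV, MV4-11 MPC1 KO, Molm-14 EV, Molm-14 MPC1 KO, and of these neighbors the MV4-11 groups overlapped while the 3 MPC1 KO libraries of Molm-14 lay above the 3 EV libraries. Molm-14 EV was higher than MV4-11 EV by 0.65 on the log2 scale (SE 0.12, adjusted p = 9.13e-05 by edgeR). The MPC1 KO difference in Molm-14, a fold change of 1.17 (95% confidence interval 0.978 to 1.40, adjusted p = 0.336), did not pass the threshold, nor did that in MV4-11, 1.06 (interval 0.889 to 1.27, adjusted p = 0.845). Deviations of same-numbered EV and MPC1 KO libraries correlated at 0.14 to 0.34 in Molm-14 and at -0.42 to 0.39 in MV4-11. Those of different numbers correlated at -0.29 to 0.063 in Molm-14 and at -0.51 to 0.62 in MV4-11. The labels give the numbers no meaning, and pairing by them, in Molm-14 only, was chosen after the data were seen. With that pairing as a replicate block in a fit of the Molm-14 libraries alone, hsa-miR-142-5p was higher with MPC1 KO (log2 fold change 0.24, adjusted p = 0.0326 by edgeR). That call rests on the chosen pairing. Since the Molm-14 groups did not overlap, any pairing would have put MPC1 KO higher in 3 of 3 pairs. The blocked fit called 81 of 567 miRNAs, 14.3%, against 48 of 567 without the block.

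hsa-miR-223-3p, the myeloid maturation marker, stayed within a narrow range. Its level was 3196, 3457 and 3096 CPM in MV4-11 EV and 2685, 2677 and 3226 CPM in MV4-11 MPC1 KO. In Molm-14 it was 2739, 2727 and 2731 CPM in EV and 2811, 2693 and 2790 CPM in MPC1 KO. MV4-11 EV was the highest group, its 3 libraries lay above the 3 Molm-14 EV libraries, and MPC1 KO and EV overlapped within each line. Molm-14 EV was lower than MV4-11 EV, at -0.25 on the log2 scale (SE 0.09, adjusted p = 0.0241 by edgeR). Replicate 2 of MV4-11 EV decided this call, since without it the value was -0.22 (adjusted p = 0.0920 by edgeR). So did replicate 2 of Molm-14 EV (-0.22, adjusted p = 0.0673), its replicate 3 (-0.20, adjusted p = 0.129) and replicate 1 of the Molm-14 MPC1 KO libraries (-0.23, adjusted p = 0.0515). With MPC1 KO, the fold change of hsa-miR-223-3p was 0.881 in MV4-11 (95% confidence interval 0.771 to 1.01, adjusted p = 0.402 by edgeR) and 1.01 in Molm-14 (interval 0.885 to 1.16, adjusted p = 0.960).

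hsa-miR-223-5p, the less abundant arm, varied more between replicates. It had 3004, 1789 and 1630 CPM in MV4-11 EV and 1807, 1445 and 1711 CPM in MV4-11 MPC1 KO. In Molm-14 it had 1713, 1322 and 1935 CPM in EV and 1726, 1831 and 2207 CPM in MPC1 KO. MV4-11 EV replicate 1 stood above the other 11 libraries, which overlapped across the 4 groups. Its log2 fold change with MPC1 KO was -0.37 in MV4-11 (95% confidence interval -0.88 to 0.14, adjusted p = 0.556 by edgeR), which became -0.06 without MV4-11 EV replicate 1. In Molm-14 it was 0.21 (interval -0.30 to 0.72, adjusted p = 0.688). Between the EV groups, its log2 fold change was -0.37 (interval -0.88 to 0.14, adjusted p = 0.185), and -0.10 without MV4-11 EV replicate 1.

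The erythroid miRNAs were near the limit of counting. hsa-miR-451a had 33, 15 and 28 counts in MV4-11 EV, 26, 20 and 22 in MV4-11 MPC1 KO, 6, 16 and 15 in Molm-14 EV, and 23, 23 and 12 in Molm-14 MPC1 KO. Its CPM was between 1.20 and 6.70, and all 4 groups overlapped. Its log2 fold change with MPC1 KO was -0.18 in MV4-11 (95% confidence interval -0.88 to 0.52, adjusted p = 0.897 by edgeR) and 0.40 in Molm-14 (interval -0.40 to 1.20, adjusted p = 0.642). Between the EV groups, its log2 fold change was -0.69 (interval -1.47 to 0.08, adjusted p = 0.114). That comparison passed the threshold with upper-quartile scaling (-0.87, adjusted p = 0.0464) and without Molm-14 EV replicate 2 (-1.02, adjusted p = 0.0431).

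hsa-miR-144-3p, made from the same transcript as miR-451a, had 18, 8 and 21 counts in MV4-11 EV, 22, 14 and 5 in MV4-11 MPC1 KO, 10, 6 and 4 in Molm-14 EV, and 9, 14 and 4 in Molm-14 MPC1 KO. The groups overlapped. With MPC1 KO, its fold change was 0.855 in MV4-11 (95% confidence interval 0.432 to 1.69, adjusted p = 0.907 by edgeR) and 1.16 in Molm-14 (interval 0.497 to 2.7, adjusted p = 0.911). hsa-miR-144-5p, the other arm, was as low, with 3 to 15 counts in a library.

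hsa-miR-486-5p had 21, 9 and 6 counts in MV4-11 EV, 8, 12 and 7 in MV4-11 MPC1 KO, 12, 11 and 12 in Molm-14 EV, and 8, 10 and 7 in Molm-14 MPC1 KO. In Molm-14 the MPC1 KO libraries were below the EV libraries in CPM (1.44 to 1.83 against 2.39 to 2.93), but its log2 fold change of -0.69 (SE 0.39, 95% confidence interval -1.5 to 0.11, adjusted p = 0.342 by edgeR) did not pass the threshold. The MV4-11 groups overlapped. The other arm, hsa-miR-486-3p, had 0 to 2 counts in a library, and 0 in all 3 MV4-11 EV libraries.

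hsa-miR-486-5p can come from 2 overlapping hairpins, and the way reads with several matches were counted is not given in the sources used here. Other miRNAs of 2 hairpins had very different levels. hsa-miR-92a-3p had a median of 4315 CPM over the 12 libraries and hsa-miR-181b-5p 216 CPM. hsa-miR-16-5p had a median of 20.6 CPM, and hsa-miR-16-2-3p, the opposite arm of 1 of its hairpins, 2146 CPM. hsa-miR-24-3p had a median of 2.24 CPM and hsa-miR-23a-3p, its neighbor in a shared cluster, 3582 CPM. The part of the counting in these values was not tested. miR-223, miR-142, miR-144, miR-150 and miR-451a each have a single annotated hairpin.

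The lymphoid miRNA hsa-miR-150-5p was equally low. It had 18, 7 and 10 counts in MV4-11 EV, 14, 9 and 11 in MV4-11 MPC1 KO, 11, 15 and 11 in Molm-14 EV, and 11, 12 and 6 in Molm-14 MPC1 KO. The groups overlapped in CPM, from 1.41 to 4.0. Its log2 fold change with MPC1 KO was -0.03 in MV4-11 (95% confidence interval -0.82 to 0.76, adjusted p = 1 by edgeR) and -0.58 in Molm-14 (interval -1.38 to 0.23, adjusted p = 0.462). For scale, hsa-miR-122-5p, a liver miRNA, had group means of 5.48 to 8.02 CPM. These were above the group means of hsa-miR-451a (2.95 to 4.71 CPM) and of hsa-miR-150-5p (1.86 to 2.89 CPM). Other markers of other tissues went both ways. Group means were 0.16 to 0.90 CPM for hsa-miR-124-3p, 0.23 to 0.89 for hsa-miR-203a-3p and 0 to 0.20 for hsa-miR-205-5p. They were 113 to 238 CPM for hsa-miR-200c-3p and 97.3 to 638 for hsa-miR-143-3p. Those of hsa-miR-141-3p and hsa-miR-199a-3p overlapped those of hsa-miR-451a. The group means of hsa-miR-145-5p were 34.6 and 35.5 CPM in MV4-11 and 3.89 and 6.39 CPM in Molm-14. In libraries of many cells, fewer cells that make a miRNA and less of it per cell cannot be told apart.

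Over the 8 miRNAs, 0 passed the threshold with MPC1 KO in MV4-11, where 3.03% of all miRNAs tested did, and 0 in Molm-14, where 6.83% did. In Molm-14 alone with the replicate block, chosen after the data were seen, it was 1 of the 7 that could be tested, hsa-miR-142-5p, against 14.3% of all miRNAs. At an unadjusted p under 0.05, edgeR gave 0 of the 8 in both lines. DESeq2 gave 0 of the 8 at either level, and limma-voom gave 0 adjusted and, unadjusted, 1 in MV4-11 (hsa-miR-223-3p) and 0 in Molm-14. The difference between the MPC1 KO effects of the lines passed for 0 of the 8 by edgeR, against 6.68% of all miRNAs, with 0 unadjusted by edgeR and 1 (hsa-miR-223-5p) by DESeq2 and by limma-voom. MPC1 KO and EV did not overlap in CPM for 0 of the 8 in MV4-11 (17.5% of all miRNAs) and for 2 of the 8 in Molm-14 (27.2%), hsa-miR-142-5p and hsa-miR-486-5p. Between the EV groups, 3 of the 8 passed the threshold against 61.9% of all miRNAs, and 3 did not overlap against 64.2%. Both are smaller shares than over all miRNAs, but 4 of the 8 had only 4 to 33 counts in a library. With a filter at a mean of at least 100 counts, 4 of 4 were called between the EV groups, against 212 of 279 miRNAs.

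**Figure D3:**
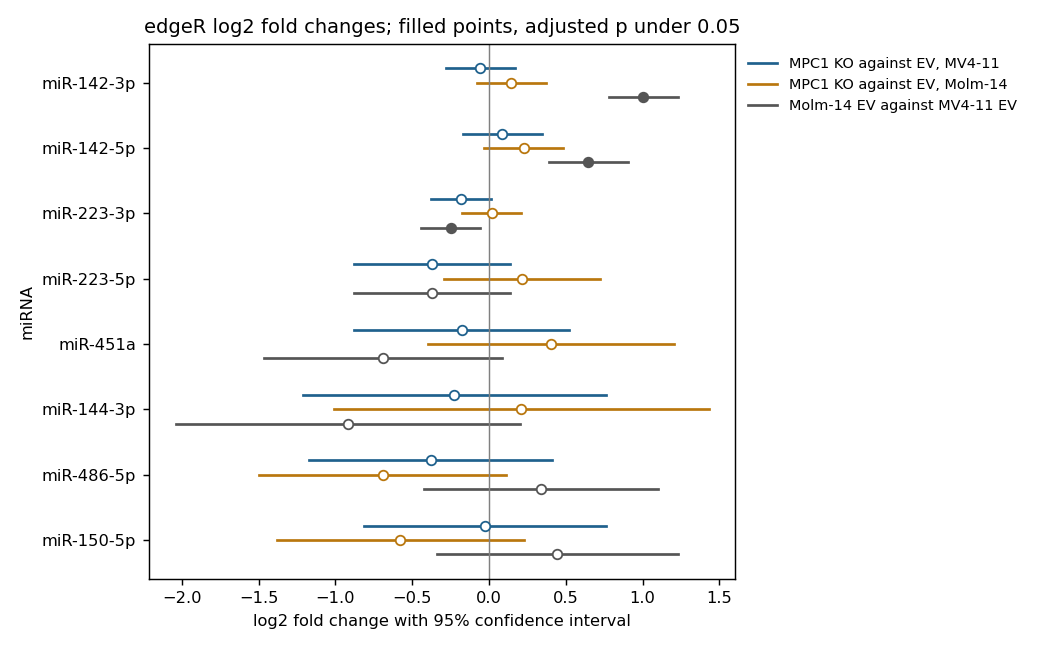
edgeR log2 fold changes (points) with 95% confidence intervals (lines) of the 8 miRNAs in 3 comparisons, with filled points for an adjusted p under 0.05. The 3 filled points are all in Molm-14 EV against MV4-11 EV, and the intervals of the 4 low miRNAs are the widest.

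The balance of the arms was compared within a library, where scaling cancels. The log2 ratio of 3p to 5p counts of miR-142 was 1.84, 1.44 and 1.36 in MV4-11 EV, 1.40, 1.36 and 1.42 in MV4-11 MPC1 KO, 1.85, 1.97 and 1.85 in Molm-14 EV, and 1.77, 1.81 and 1.85 in Molm-14 MPC1 KO. The 3p arm was the more abundant in all 12 libraries, and the Molm-14 EV values were above those of MV4-11 EV, though only just above MV4-11 EV replicate 1. The mean difference between the EV groups was 0.34 (exact two-sided permutation p = 0.1, the smallest that 3 against 3 can give). With MPC1 KO the ratio differed by -0.16 in MV4-11 (exact p = 0.4) and by -0.08 in Molm-14 (exact p = 0.2), with overlap in both lines. Without MV4-11 EV replicate 1 the difference in MV4-11 was -0.011, and that between the EV groups 0.49.

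The log2 ratio of 3p to 5p counts of miR-223 was 0.09, 0.95 and 0.93 in MV4-11 EV, 0.57, 0.89 and 0.91 in MV4-11 MPC1 KO, 0.68, 1.04 and 0.50 in Molm-14 EV, and 0.70, 0.56 and 0.34 in Molm-14 MPC1 KO. The arms were thus close to equal in MV4-11 EV replicate 1, the library with the high 5p level, and the groups overlapped in every comparison. The difference with MPC1 KO was 0.14 in MV4-11 (exact p = 1) and -0.21 in Molm-14 (exact p = 0.5), and that between the EV groups was 0.08 (exact p = 0.8). Both signs rest on 1 library: without MV4-11 EV replicate 1 the difference was -0.15 in MV4-11 and -0.20 between the EV groups. The latter was also negative, at -0.07, without Molm-14 EV replicate 2. Of the 3 hairpins with both arms counted here (miR-223, miR-142 and miR-144), 0 had arm ratios that did not overlap between MPC1 KO and EV in MV4-11 and 0 in Molm-14, against 11.0% and 19.5% of 164 hairpins without overlap. Between the EV groups it was 1 of the 3, miR-142, against 32.3% of the 164.

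**Figure D4:**
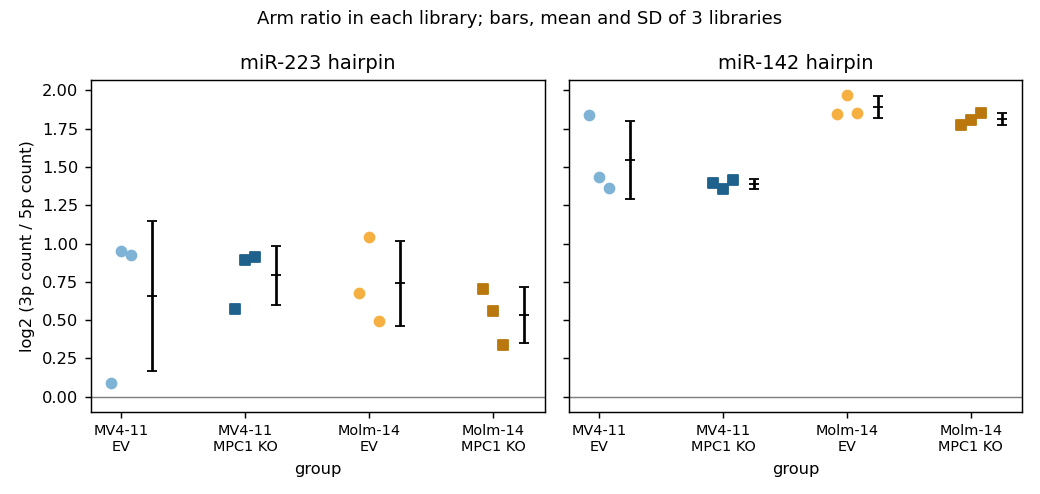
log2 of the 3p count over the 5p count of the miR-223 and miR-142 hairpins in each library (points), with the mean and SD of 3 libraries (black). MV4-11 EV replicate 1 is lowest for miR-223, at 0.09, and highest of the MV4-11 libraries for miR-142, at 1.84.

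Within every library of both genotypes, the myeloid hsa-miR-223-3p far exceeded the 3 erythroid miRNAs and hsa-miR-150-5p. hsa-miR-223-3p had 235 to 538 times the summed counts of hsa-miR-451a, hsa-miR-144-3p and hsa-miR-486-5p, with a median of 378 over the 12 libraries. It had 681 to 2181 times the counts of hsa-miR-150-5p, with a median of 1358. Since the denominators are small counts, these ratios carry their counting error. hsa-miR-150-5p does not stand for every miRNA of the lymphoid list compared further on. There, hsa-miR-155-5p had group means of 27749 to 39889 CPM, above hsa-miR-223-3p. hsa-miR-28-5p had 127 to 208 CPM, and hsa-miR-181a-5p, of 2 hairpins, 0.34 to 0.78 CPM. hsa-miR-142-3p exceeded hsa-miR-223-3p by 6.55 ± 0.677 times (SD, n = 3) in MV4-11 EV and by 15.6 ± 1.07 times (SD, n = 3) in Molm-14 EV, without overlap (log2 difference 1.25, exact two-sided permutation p = 0.1, the smallest possible). With MPC1 KO that ratio overlapped EV in both lines, with log2 differences of 0.12 in MV4-11 (exact p = 0.7) and 0.13 in Molm-14 (exact p = 0.2).

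For signs of differentiation, a wider list of miRNAs linked to myeloid maturation was compared, which holds both arms of miR-223 and 14 others. Of these 16, 2 can come from several hairpins, and how reads with several matches affected their counts was not tested. In MV4-11, of the 15 past the filter, 1 was higher with MPC1 KO, hsa-miR-503-5p, from 261 ± 15.2 to 343 ± 26 CPM (SD, n = 3; log2 fold change 0.40, adjusted p = 0.00949 by edgeR), and 0 were lower. In Molm-14, 0 were higher and 1 was lower, hsa-miR-146a-5p, a brake on NF-κB signaling, from 198 ± 12.4 to 119 ± 7.43 CPM (SD, n = 3; log2 fold change -0.74, adjusted p = 1.89e-05). Over all miRNAs, 3.03% were called in MV4-11 and 6.83% in Molm-14. The 1 of 15 in Molm-14 is close to the share of that line. In MV4-11 the 1 of 15 is above the share of that line, but it is a single miRNA. The median log2 fold change of the 15 was -0.02 in MV4-11 and 0.02 in Molm-14, against -0.004 and -0.01 over all miRNAs. Between the EV groups, 3 of the 15 were higher and 8 lower in Molm-14, with a median of -0.26 against 0.06 over all miRNAs, of which 61.9% were called.

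Of 11 miRNAs linked to stem and progenitor cells, 2 can come from several hairpins, with the same limit on their counts. With MPC1 KO, 0 of the 11 were higher in either line. hsa-miR-100-5p was lower in both, from 45.2 ± 3.78 to 28.2 ± 2.48 CPM in MV4-11 (SD, n = 3; log2 fold change -0.68, adjusted p = 0.00316 by edgeR) and from 74.4 ± 5.09 to 42.2 ± 3.79 CPM in Molm-14 (SD, n = 3; -0.82, adjusted p = 0.000155). hsa-miR-10a-5p, a HOX-cluster miRNA, was lower in Molm-14, from 407 ± 4.45 to 162 ± 11.2 CPM (SD, n = 3; -1.33, adjusted p = 4.65e-09). So 1 of the 11 was called in MV4-11 (3.03% of all miRNAs) and 2 in Molm-14 (6.83%). The median log2 fold change of the 11 was -0.13 in MV4-11 and -0.04 in Molm-14, against -0.004 and -0.01 over all miRNAs. In Molm-14 EV against MV4-11 EV, 7 of the 11 were higher and 1 lower, with a median of 0.91 against 0.06 over all miRNAs and 61.9% of all called.

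Of the erythroid list, 4 miRNAs passed the filter and 0 passed the threshold in either line, where 3.03% (MV4-11) and 6.83% (Molm-14) of all miRNAs did. Of 3 lymphoid miRNAs past the filter, 1 was higher with MPC1 KO, in Molm-14: hsa-miR-155-5p, which activated myeloid cells also make, from 27749 ± 1476 to 39889 ± 2462 CPM (SD, n = 3; log2 fold change 0.52, adjusted p = 0.00732 by edgeR). The lymphoid list summed to 32542 to 48761 CPM in MV4-11 EV, 33212 to 41290 in MV4-11 MPC1 KO, 26717 to 29518 in Molm-14 EV and 37854 to 42707 in Molm-14 MPC1 KO, nearly all of it hsa-miR-155-5p, which thus exceeded hsa-miR-223-3p in every group. The erythroid list summed to 9.29 to 16.0 CPM in MV4-11 EV, 7.77 to 13.6 in MV4-11 MPC1 KO, 6.39 to 9.67 in Molm-14 EV and 6.80 to 11.4 in Molm-14 MPC1 KO, and these ranges overlapped between genotypes. Of 6 markers of other tissues past the filter, 0 passed the threshold in MV4-11 (3.03% of all miRNAs did) and 1 fell in Molm-14 (6.83% of all called), hsa-miR-143-3p, a smooth muscle and fibroblast miRNA, from 179 ± 15.3 to 97.3 ± 2.03 CPM (SD, n = 3; log2 fold change -0.88, adjusted p = 3.74e-06 by edgeR). In MV4-11 the same miRNA went from 638 ± 52.8 to 506 ± 50.0 CPM (SD, n = 3; -0.33, adjusted p = 0.0674). The 9 markers of that list in the table summed to 859 to 930 CPM in MV4-11 EV and 779 to 826 in MV4-11 MPC1 KO, and to 304 to 316 CPM in Molm-14 EV and 236 to 246 in Molm-14 MPC1 KO. Most of each sum was hsa-miR-143-3p and hsa-miR-200c-3p, so it does not show the markers falling together. The mean of hsa-miR-200c-3p was higher with MPC1 KO, at 238 against 218 CPM in MV4-11 and 130 against 113 in Molm-14, without passing the threshold. Of the epithelial markers in that list, hsa-miR-205-5p had 0 counts in all EV libraries and 0 to 2 in the MPC1 KO libraries. Group means were 0.23 to 0.89 CPM for hsa-miR-203a-3p and 1.16 to 4.51 CPM for hsa-miR-141-3p. By contrast, hsa-miR-200c-3p had 218 ± 20 CPM in MV4-11 EV and 113 ± 8.27 in Molm-14 EV (SD, n = 3). The part of these markers in the results was not tested.

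Over the 12 libraries, with each miRNA centered on its own mean, hsa-miR-223-3p was most like hsa-miR-34a-5p, hsa-miR-501-3p and hsa-miR-27b-3p among 606 miRNAs, with root mean square log2 differences of 0.0913, 0.120 and 0.124. Its own other arm differed by 0.273, and 81 miRNAs were nearer. hsa-miR-142-3p was most like hsa-miR-17-3p, hsa-miR-18a-5p and hsa-miR-16-2-3p (0.0889, 0.127 and 0.132), and its other arm differed by 0.229, with 19 miRNAs nearer. For hsa-miR-150-5p the nearest were hsa-miR-664a-5p, hsa-miR-3922-3p and hsa-miR-3679-5p (0.276, 0.285 and 0.308), at 6 to 18 counts in a library. The 12 points share 4 groups and their depths.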

How the data were processed

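RNA of EV and MPC1 KO cells of both lines (3 libraries a group) was made into libraries with the NEBNext Multiplex Small RNA kit. The authors deposited raw counts of reads on each mature miRNA, without normalization. The submitters' processing notes name STAR 2.5.2, featureCounts 1.5.1 and GRCh38. How reads with several matches were treated is not given in the sources used here. The 12 libraries were grouped by their labels. Counts were filtered with filterByExpr (minimum count 10), TMM-normalized and fitted by edgeR 4.0.16 (robust quasi-likelihood, 4 group means) in R 4.3.3, with Benjamini-Hochberg adjustment over 659 miRNAs and a threshold of 0.05. The fit was tested on simulated data. Arm ratios used a pseudocount of 0.5 and exact two-sided permutation tests (SciPy, Python), which with 3 libraries a group cannot give a p under 0.1. Total counts were between 3870104 and 8683456. Named were the 8 miRNAs, their other arms, list members past the threshold, and the 3 miRNAs nearest in pattern. The other-tissue markers not past the threshold, hsa-miR-28-5p and hsa-miR-181a-5p were named after their values were seen. So were hsa-miR-92a-3p, hsa-miR-181b-5p, hsa-miR-16-5p and hsa-miR-24-3p with their partners. Deviations from the group means correlated in same-numbered EV and MPC1 KO libraries at 0.14 to 0.34 in the 3 pairs of Molm-14. Other Molm-14 pairs were at -0.29 to 0.063. In MV4-11, same-numbered pairs were at -0.42 to 0.39 and other pairs at -0.51 to 0.62. EV libraries of different lines correlated at -0.58 to 0.50. Against that spread 0.14 to 0.34 is weak ground for pairing, and the numbers were taken as pairs in Molm-14 only. The labels do not give their meaning, and a blocked fit of Molm-14 alone was added after the data were seen. The miRNAs and lists were chosen with earlier results of these data known. Alternatives were DESeq2 1.42.0, limma-voom (limma 3.58.1), other scalings and filters, each line alone, a replicate block, and leaving out each library. hsa-miR-130a-3p, hsa-miR-150-3p, hsa-miR-214-3p and the miR-4732 arms were not analysed here.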

Additional observations from a re-analysis of the deposited data

How the results depend on the processing

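Of 646 alternative values for the 32 log2 fold changes of the 8 miRNAs, 617 kept their direction and side of the threshold, and the count of the 8 called with MPC1 KO was 0 in every alternative but 1 and in every fit that left out a library, though only 4 of the 8 could be tested at a mean of at least 100 counts and 7 in Molm-14 alone. The exception was a replicate block in Molm-14 alone, added after the data were seen, with 1 called, hsa-miR-142-5p (0.24, adjusted p = 0.0326), where 81 of 567 miRNAs were called against 48 without the block. Between the EV groups, 2 to 4 of the 8 were called. hsa-miR-223-5p was called with a mean of at least 100 counts (-0.45, adjusted p = 0.0396) and by DESeq2 (-0.40, adjusted p = 0.0489). With MPC1 KO in MV4-11, the log2 fold change turned sign for hsa-miR-142-3p with total counts only (0.012), for hsa-miR-142-5p with upper-quartile factors (-0.019) and for hsa-miR-150-5p with total counts only (0.057). The cause was not tested. Leaving out 1 library at a time gave, in MV4-11, -0.20 to 0.030 for hsa-miR-142-3p, -0.070 to 0.21 for hsa-miR-142-5p, -0.26 to 0.15 for hsa-miR-150-5p, -0.82 to 0.26 for hsa-miR-144-3p and -0.35 to 0.10 for hsa-miR-451a. For hsa-miR-144-3p it gave -0.18 to 0.52 in Molm-14 and -0.038 to 1.04 for the difference between the lines. Arm ratio differences without 1 library at a time were -0.15 to 0.28 (MPC1 KO, MV4-11) and -0.20 to 0.23 (EV groups) for miR-223, and -0.63 to 0.11 (MV4-11), -1.18 to 0.041 (Molm-14) and -0.60 to 0.62 (EV groups) for miR-144. In MV4-11 the libraries share only a number. With replicate number as a block over all 12 libraries, 22 miRNAs were called in MV4-11, 49 in Molm-14 and 406 between the EV groups, against 20, 45 and 408, and of the 8 miRNAs 0, 0 and 3. Counts of 4 to 33 limit the 4 low miRNAs, and intervals there span more than 2-fold.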
